A study of Mus musculus with 2 samples.

Results

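Border-associated macrophages were examined in hippocampal single-cell RNA sequencing of 2 mouse genotypes. The 60TM mice carry the allele that the labels list as GFAP-hGFAP, a human GFAP transgene, on a C57BL6/J background, and serve as a model of Alexander disease, an astrocyte disorder caused by altered GFAP. The WT mice were C57BL6/J. All mice were 7 weeks old. Each genotype has 1 library of pooled cells from 3 mice, and barcodes were not assigned to mice. Differences between genotypes therefore have no replicate check and no p-value, and every interval given is a 95% interval that covers counting error only. A barcode, which stands for 1 captured droplet, belonged to the gate when at least 4 of the 7 genes Mrc1, Pf4, Ms4a7, F13a1, Cbr2, Lyve1 and Cd163 had at least 1 unique molecular identifier (UMI), among barcodes with 500 or more genes and no more than 15% of UMIs from mitochondrial genes. The members were thus chosen by their UMIs of these 7 genes, which selected 162 of 8125 60TM barcodes and 91 of 6435 WT barcodes, 253 of 14560 in all.

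Border-associated macrophages are the resident macrophages of the meninges, the perivascular spaces and the choroid plexus. They share many genes with microglia, the macrophages of the brain tissue proper, but carry scavenger receptors such as the mannose receptor Mrc1 and the haemoglobin scavenger receptor Cd163. Cells with the hyaluronan receptor Lyve1 and cells with major histocompatibility complex (MHC) class II, which presents antigen to T cells, are the usual poles of the population. Type I interferon acts on all of these cells through transcription factors that bind interferon-stimulated response elements near the start of target genes.

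The barcodes nearest to the threshold of 4 genes overlapped in their gate-gene UMIs. In the 60TM library 9 barcodes had 3 gate genes, just outside the gate, and 18 had 4, just inside it. In the WT library 3 barcodes had 3 and 7 had 4. All 7 genes were seen in 84 60TM and 42 WT barcodes. Barcodes just outside held a median of 9 gate-gene UMIs in 60TM and 11 in WT, and barcodes just inside held 14 in 60TM and 26 in WT. In 60TM the counts ran from 5 to 26 inside and from 3 to 18 outside, and in WT from 6 to 133 inside and from 8 to 16 outside. Since the 7 genes define the gate, their values are a description.

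**Figure D1:**
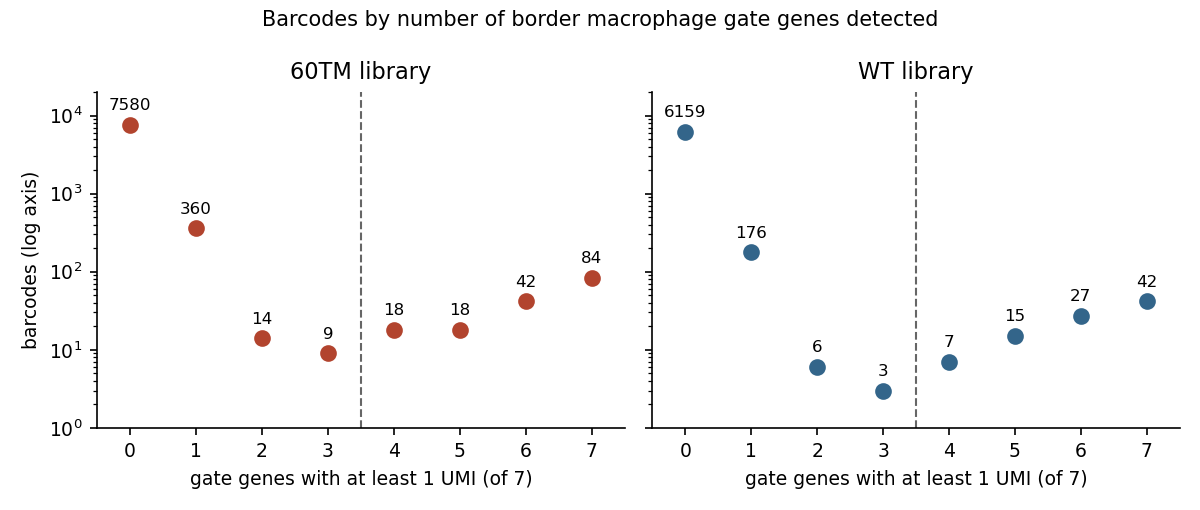
Barcodes (log axis) by the number of the 7 gate genes with at least 1 UMI, in the 60TM library (left) and the WT library (right), with the gate to the right of the dashed line. Few barcodes have 2 or 3 gate genes, 14 and 9 in 60TM and 6 and 3 in WT, and most have none.

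Gated barcodes held 1341998 UMIs in 60TM and 642556 in WT, with a median of 7249 and 5513 UMIs per barcode. Mouse Gfap, a check of the labels, stood at 390 CPM (counts per 1000000 UMIs) in 60TM and 67.2 CPM in WT over all barcodes outside the gate, a ratio of 5.81 (5.62 to 5.997). It is not known here whether reads of the human transgene count towards this gene. Some gated barcodes also carried RNA of other cells. A barcode was called mixed when it held more UMIs of the markers of 8 other cell classes together, or of 7 microglial genes, than of the 7 gate genes (a definition added with the data in view). It marked 26 60TM barcodes with 33.0% of the gate's UMIs and 10 WT barcodes with 24.0%. Of the barcodes with 4 gate genes, 10 of 18 in 60TM and 0 of 7 in WT were mixed. Endothelial markers led 6 of the 60TM mixed barcodes and none of the WT ones. In WT 1 barcode held 4883 UMIs of choroid plexus markers and 1 held 3091 of oligodendrocyte markers. Without mixed barcodes the gate held 136 60TM and 81 WT barcodes, 217 in all, and the main counts are also given for these. The markers of the 8 classes, among them Ly6c1, Itm2a, Mag and Ttr, define mixed barcodes. How their levels change without mixed barcodes is therefore a description. The libraries shared 18 barcode sequences after filtering, 1 of them in the gate of each library.

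The label was set against markers that the rule did not use. These were chosen with earlier results of these data known, so their counts are not an independent check of the label. Of 23 other genes known from border macrophages, 22 had at least 100 UMIs over this gate and a gate of microglia (at least 4 of P2ry12, Tmem119, Siglech, Sall1, Gpr34, P2ry13 and Slc2a5, without gated macrophages, 2861 60TM and 2337 WT barcodes). Of these 22, 21 were higher in the macrophage gate and 0 lower (edgeR quasi-likelihood test on 4 sums of raw counts with the library as block, adjusted p under 0.05). Over all 11650 genes tested the share higher was 10.0% and the share lower 8.72%. Hpgd did not pass in this fit and passed without mixed barcodes, where 22 of 22 were higher. Clec10a, a galactose lectin, stood at 356 CPM in 60TM gated barcodes and 0.0429 CPM in 60TM microglia, and at 459 and 0.0612 CPM in the same populations of WT (adjusted p = 2.2e-07). The folate receptor Folr2 stood at 324 CPM in 60TM gated barcodes and 1.37 CPM in 60TM microglia, and at 366 and 1.16 CPM in WT (adjusted p = 3.87e-07). Both genes were near 0 in microglia of both libraries and high in the gate of both.

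By the smaller of both libraries' log2 ratios of CPM + 5, the 10 leading genes in the macrophage gate were Ccl7, Clec10a, Cd209f, Dab2, Folr2, Ifitm2, Ccl24, Ifi203, Cp and Wfdc17. They include chemokines, lectins, the endocytic adaptor Dab2, the copper-carrying ferroxidase Cp and interferon-induced genes, and all 10 had an edgeR adjusted p of 4.275e-05 or less. Reads of Ifi203 and Ifi204, members of a family of close copies, may have been split between them. The 10 leading genes in microglia included Lag3, Selplg, Abi3, Plxdc2, Gal3st4, Olfml3, Parvg, Ecscr and Havcr2. Selplg, the ligand of P-selectin, stood at 127 CPM in 60TM gated barcodes and 1685 CPM in 60TM microglia, and at 194 and 2143 CPM in WT (adjusted p = 8.48e-06). Of the 10 other microglial genes listed, 9 were lower in the macrophage gate and 0 higher, against 8.72% and 10.0% of all genes tested.

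Iron and interferon genes also stood higher in the macrophage gate than in microglia. Of 11 iron and haem genes tested, 10 were higher and 0 lower (edgeR, adjusted p under 0.05), and 9 of 11 without mixed barcodes. For this count and those that follow, the shares over all 11650 genes tested were 10.0% higher and 8.72% lower. Haem oxygenase Hmox1 stood at 159 CPM in 60TM gated barcodes and 28.6 CPM in 60TM microglia, and at 106 and 24.5 CPM in WT (adjusted p = 5.8e-05). The iron exporter Slc40a1 stood at 159.5 and 83.5 CPM in these populations of 60TM, and at 346 and 114 CPM in WT (adjusted p = 0.00291). Of 18 interferon response genes, 16 were higher and 0 lower, and 17 of 18 without mixed barcodes. Of 17 scavenger and endocytic receptors tested, 11 were higher and 3 lower (Mertk, Scarb2 and Lrp1). Markers of other cells moved with this comparison. Of 5 endothelial markers 4 were higher in the gate, while without mixed barcodes 0 were higher and 5 lower. Mural markers (4 of 4), fibroblast markers (3 of 4) and neuron markers (2 of 4) were also higher. Leaving out mixed barcodes, 1 of 4 mural, 1 of 2 fibroblast and 2 of 4 neuron markers were still higher and 0 lower. Astrocyte, oligodendrocyte and choroid plexus markers had 0 higher in either fit. All these markers are among those that define mixed barcodes, so their shifts are a description, not a test.

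Of 11 complement genes tested, 4 were higher in the macrophage gate than in microglia (C3ar1, C5ar1, C4b and Cfp). Another 3 were lower (C1qb, Itgam and Itgb2), against 10.0% higher and 8.72% lower of all 11650 genes tested. Cfp, which stabilises the alternative complement pathway, stood at 107 CPM in 60TM gated barcodes and 0.859 CPM in 60TM microglia, and at 185 and 0.612 CPM in WT (edgeR adjusted p = 3.88e-06). Within the gate Cfp had a 60TM over WT ratio of 0.579 (0.451 to 0.745), while C1qa, a subunit of the first complement component, had 1.03 (0.992 to 1.07). Lyz2, the macrophage lysozyme, stood at 3036 CPM in 60TM gated barcodes and 211 CPM in 60TM microglia, and at 4837 and 227 CPM in WT (adjusted p = 9.94e-06). All 3 alternative activation genes tested, Il4ra, Mgl2 and Clec10a, were higher in the gate, against 10.0% of all genes tested. Within the gate, Mgl2, a lectin, had 171 CPM in 60TM and 258 CPM in WT, a ratio of 0.660 (0.538 to 0.811), and Il4ra, the interleukin 4 receptor chain, a ratio of 1.03 (0.767 to 1.39). The gates share their library, so these tests rest on 4 sums, and the p-values measure the spread between libraries of different genotype.

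**Figure D2:**
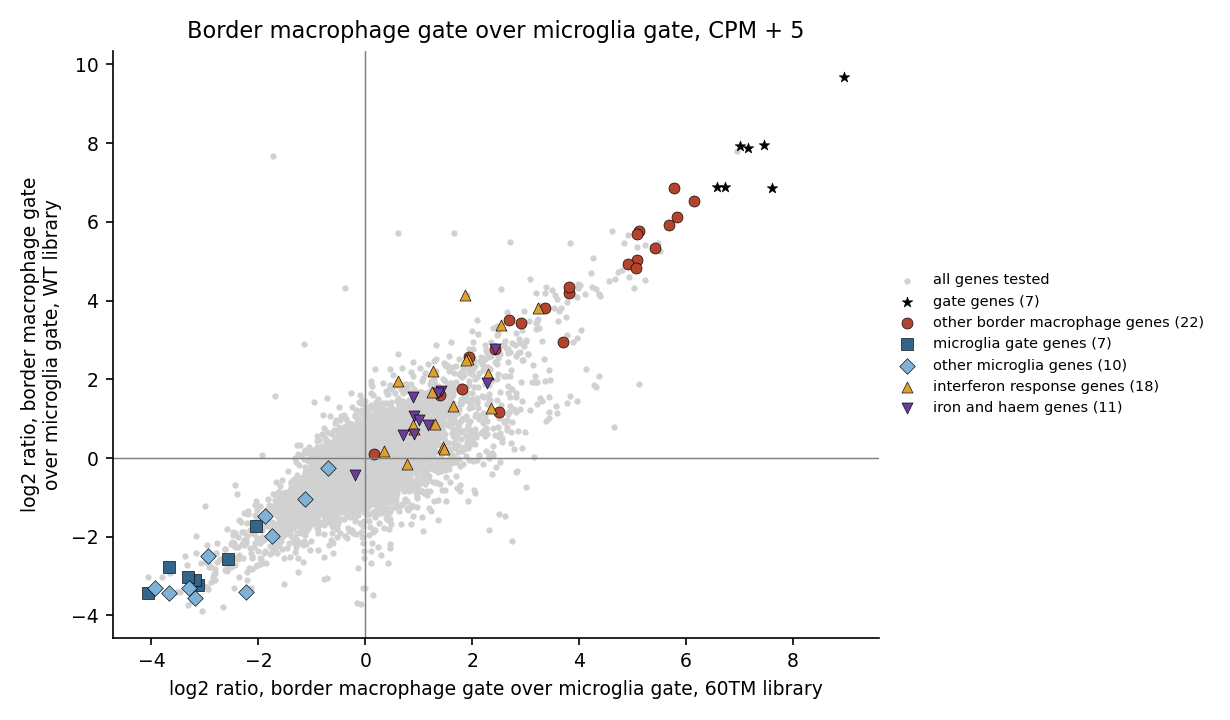
Each point is a gene, with the log2 ratio of CPM + 5 in the macrophage gate over the microglia gate in the 60TM library (horizontal) and in the WT library (vertical), and gene lists in colour. The 22 other border macrophage genes lie above 0 in both libraries, and the microglial genes below 0 in both.

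Gated macrophages took 1.99% (1.70 to 2.32, exact Clopper-Pearson) of 60TM barcodes and 1.41% (1.14 to 1.73) of WT barcodes. The ratio was 1.41 (1.08 to 1.84). Without mixed barcodes the shares were 1.67% (1.41 to 1.98) in 60TM and 1.26% (1.001 to 1.56) in WT, a ratio of 1.33 (1.003 to 1.77). Shares depend on dissection, dissociation and cell calling, whose part in this difference was not tested. Dividing cells were few: Mki67, a proliferation marker, or Top2a, a topoisomerase of dividing cells, had a UMI in 4 60TM and 2 WT gated barcodes, and no barcode had both.

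The comparison of 60TM with WT within the gate addresses how these macrophages differ in the presence of the disease model. A gene counted as higher or lower from a 2-fold difference on, given 100 UMIs or more over both libraries. Of 3277 such genes, 150 (4.58%) were higher in 60TM and 43 (1.31%) lower. Without mixed barcodes 46 of 2147 genes (2.14%) were higher and 10 (0.466%) lower. Of the genes called in all gated barcodes, 33 higher and 7 lower ones were also called without mixed barcodes. The median log2 ratio over all genes tested was -0.01.

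Genes abundant in other cell types were frequent among the extremes in all gated barcodes. Ranked by the interval bound nearest to 1, the 12 highest included Alcam, Itm2a, Ramp2, Ly6c1, Mt2, Ly6a, Ifit1, Apod, Sparcl1, Cspg5 and Itih5. Ly6c1, an endothelial surface gene, stood at 532 CPM in 60TM and 51.4 CPM in WT, and mixed barcodes held 99.4% of its 60TM UMIs and 100% of its WT UMIs. Alcam, an adhesion molecule, had 114 UMIs in 60TM and 0 in WT, at least 18.2-fold higher when 3 UMIs are put in for WT, with 91.2% of its UMIs in mixed barcodes. The 12 lowest included H2-Eb1, H2-Ab1, Ttr, H2-Aa, Nfasc, Opalin, Tspan2, Mag, Cnp, Cd74 and Map1a. Of these, Nfasc, Opalin, Tspan2, Mag and Cnp are genes of oligodendrocytes and myelin, with 90.4% to 98.6% of their WT UMIs in mixed barcodes. Ttr, the transthyretin of the choroid plexus, had a ratio of 0.0488 (0.0443 to 0.0535) in all gated barcodes and of 12.04 (7.52 to 20.5) without mixed barcodes. Ly6c1, Itm2a, Mag and Ttr are among the markers that define mixed barcodes.

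Without mixed barcodes the same ranking gave interferon response genes, metallothioneins, the chemokine Ccl6 and genes abundant in choroid plexus cells or astrocytes at the top. The 12 highest included Ttr, Isg15, Ifi27l2a, Mt3, Ccl6, Iigp1, Clu, Mt2, Ifit2, Oasl2 and Irf7. Mt2, a metal-binding metallothionein, stood at 147 CPM in 60TM and 26.6 CPM in WT, a ratio of 5.52 (3.12 to 10.6). Iigp1, an interferon-induced GTPase, stood at 159 and 26.6 CPM, a ratio of 5.98 (3.39 to 11.5), and 27.2% of its 60TM UMIs in the whole gate came from 1 barcode. Ttr, Clu and Mt3 are among those of the other cells, and summed choroid plexus markers still stood at 483 CPM in 60TM and 51.2 CPM in WT in these barcodes, and astrocyte markers at 350 and 108 CPM. Over all barcodes of a library, choroid plexus markers stood at 19740 CPM in 60TM and 5571 CPM in WT. Their part in these ratios was not tested. The 12 lowest were H2-Eb1, H2-Ab1, H2-Aa, Ndnf, Cd74, Meg3, Egfl7, Slc40a1, Cd36, Kcnq1ot1, Sgpl1 and Snhg11.

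**Figure D3:**
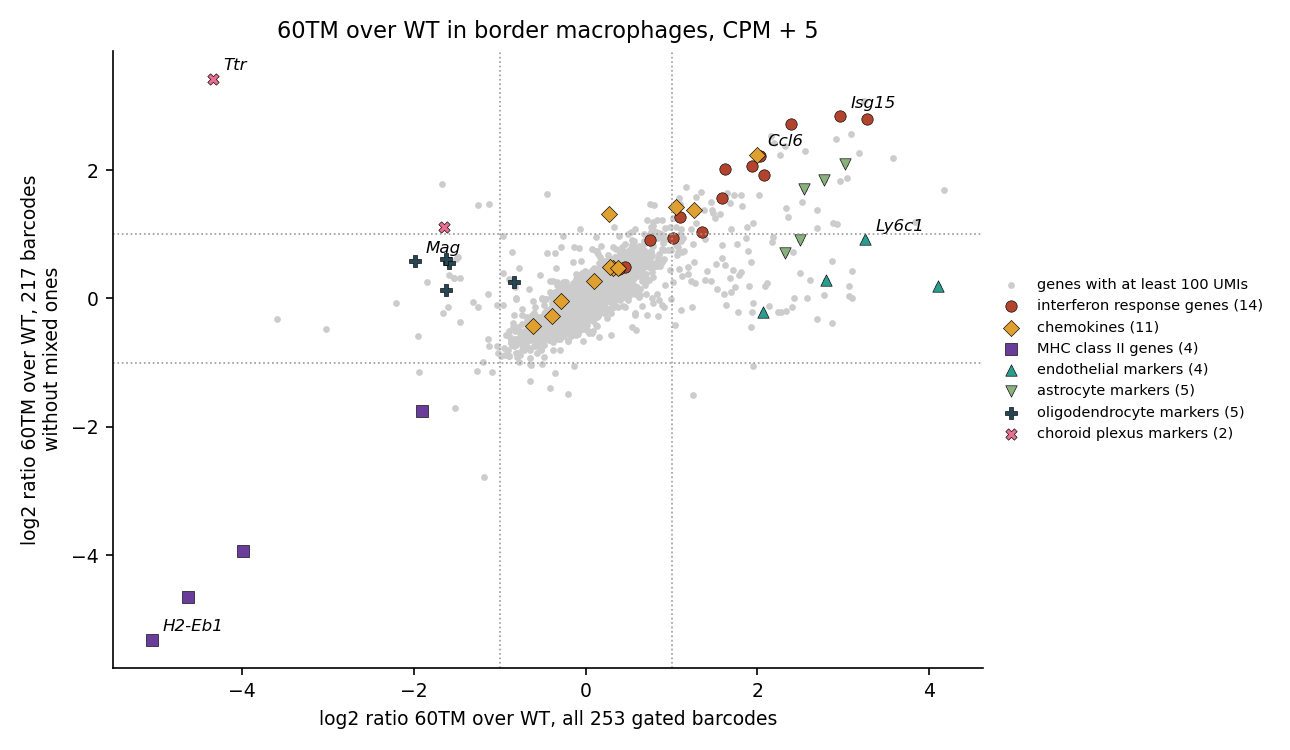
Each point is a gene with at least 100 UMIs in the gate, with the log2 ratio of CPM + 5, 60TM over WT, in all 253 gated barcodes (horizontal) and in the 217 without mixed ones (vertical); dotted lines mark 2-fold. Interferon response genes lie above 0 on both axes and MHC class II genes low on both, while endothelial markers pass 2-fold higher and 4 of 5 oligodendrocyte markers 2-fold lower on the horizontal axis only. Endothelial and oligodendrocyte markers are among those that define mixed barcodes.

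Interferon response genes were higher in 60TM macrophages as a group. All 18 listed genes had a higher level in 60TM, with a median log2 ratio of 1.75 over the 18 (1.97 without mixed barcodes). Summed over the list, they stood at 5674 CPM in 60TM and 2317 CPM in WT, a ratio of 2.45. Leaving out the barcode with most interferon UMIs in each library gave the same ratio, 2.45, and leaving out mixed barcodes gave 2.41. Of the 14 members with enough UMIs, 11 passed 2-fold higher in 60TM and 0 lower, against 4.58% and 1.31% of all genes tested.

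The antiviral ubiquitin-like protein gene Isg15 (GRCm38 chr4:156199424-156200818, minus strand) had 131 CPM in 60TM and 12.4 CPM in WT, from 176 and 8 UMIs, a ratio of 10.5 (5.23 to 24.8). Irf7, the factor that amplifies interferon production, had 127 CPM in 60TM and 26.5 CPM in WT, a ratio of 4.82 (2.92 to 8.46). Ifi27l2a, an interferon-induced mitochondrial protein gene, had 1460 CPM in 60TM and 355 CPM in WT, a ratio of 4.11 (3.58 to 4.74). These intervals all lie above 2. The levels of Ifit1 rest on 99 UMIs in 60TM and 2 in WT, a ratio of 23.7 (6.39 to 198), with 47.5% of the 60TM UMIs in mixed barcodes and a ratio of 14.1 (3.72 to 120) without them. At the low end, Bst2, the virus-tethering membrane protein, had 1171 CPM in 60TM and 850 CPM in WT, a ratio of 1.38 (1.25 to 1.52), and Rtp4 a ratio of 1.33 (0.939 to 1.91, which spans 1). Ifit3 has a close copy, Ifit3b, with which reads may have been split.

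The promoters of these genes were searched for the element named above. The motif GAAANNGAAA, the core of the interferon-stimulated response element, and its reverse complement TTTCNNTTTC were sought in RefSeq promoter windows of GRCm38.p6, from 250 bases before to 50 bases after each start. They were present for 7 of the 12 interferon response genes that have a window, and for 3.99% of 27025 genes (3.44% of 32851 windows). The matches are letters in a window and were not tested for binding. The stretches of 50 bases around the match are shown for 6 of the 7 genes, those with a whole match before the start. They run 5′ to 3′ on the strand of the gene, with matches in capitals.
Isg15 (chr4:156200855-156200904, minus strand): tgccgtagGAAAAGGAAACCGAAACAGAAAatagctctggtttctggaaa
Ifit1 (chr19:34640784-34640833, plus strand): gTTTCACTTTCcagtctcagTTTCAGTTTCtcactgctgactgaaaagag
Ifit3 (chr19:34583387-34583436, plus strand): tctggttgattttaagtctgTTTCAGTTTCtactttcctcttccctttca
Bst2 (chr8:71537567-71537616, minus strand): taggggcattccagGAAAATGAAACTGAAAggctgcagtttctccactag
Rsad2 (chr12:26456543-26456592, minus strand): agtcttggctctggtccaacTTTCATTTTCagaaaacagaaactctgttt
Gbp2 (chr3:142620584-142620633, plus strand): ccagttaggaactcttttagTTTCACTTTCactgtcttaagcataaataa
The first base of the match nearest to the start was 66 bases before it in Isg15, the gene with a ratio of 10.5, and 124 bases before it in Bst2, with a ratio of 1.38.

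The interferon difference was spread over many barcodes. Each barcode with at least 2000 UMIs was thinned to 2000, which left 146 60TM and 79 WT gated barcodes and left out 16 and 12. The median number of the 18 genes with a UMI was 4 in 60TM and 3 in WT. At least 5 of the 18 were seen in 64 60TM barcodes, 43.8% (35.6 to 52.3), and in 8 WT barcodes, 10.1% (4.474 to 18.98). Without mixed barcodes the shares were 47.9% in 60TM and 11.6% in WT. The highest 60TM barcode had 17 of the 18 genes, and the highest WT barcode had 9. In microglia thinned alike, at least 5 were seen in 7.12% of 60TM and 0.394% of WT barcodes. At this depth 13 of 146 60TM and 14 of 79 WT gated barcodes had 0 or 1 of the genes, so that both libraries hold barcodes with few or none.

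Several interferon genes differed less between genotypes in macrophages than in microglia, by their ratios. Ifi204, a DNA-binding interferon-inducible gene, had a ratio of 1.70 (1.36 to 2.14) in the macrophage gate and 16.5 (12.98 to 21.3) in microglia. Its levels were 270 CPM in 60TM and 159 CPM in WT macrophages, and 70.6 CPM in 60TM and 4.28 CPM in WT microglia. Oasl2 had a ratio of 3.37 (2.15 to 5.54) in the gate and 14.5 (10.1 to 21.7) in microglia. Isg15, by contrast, had 10.5 (5.23 to 24.8) in the gate and 10.9 (8.64 to 13.98) in microglia. With 1 library per genotype the difference between the ratios was not tested.

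**Figure D4:**
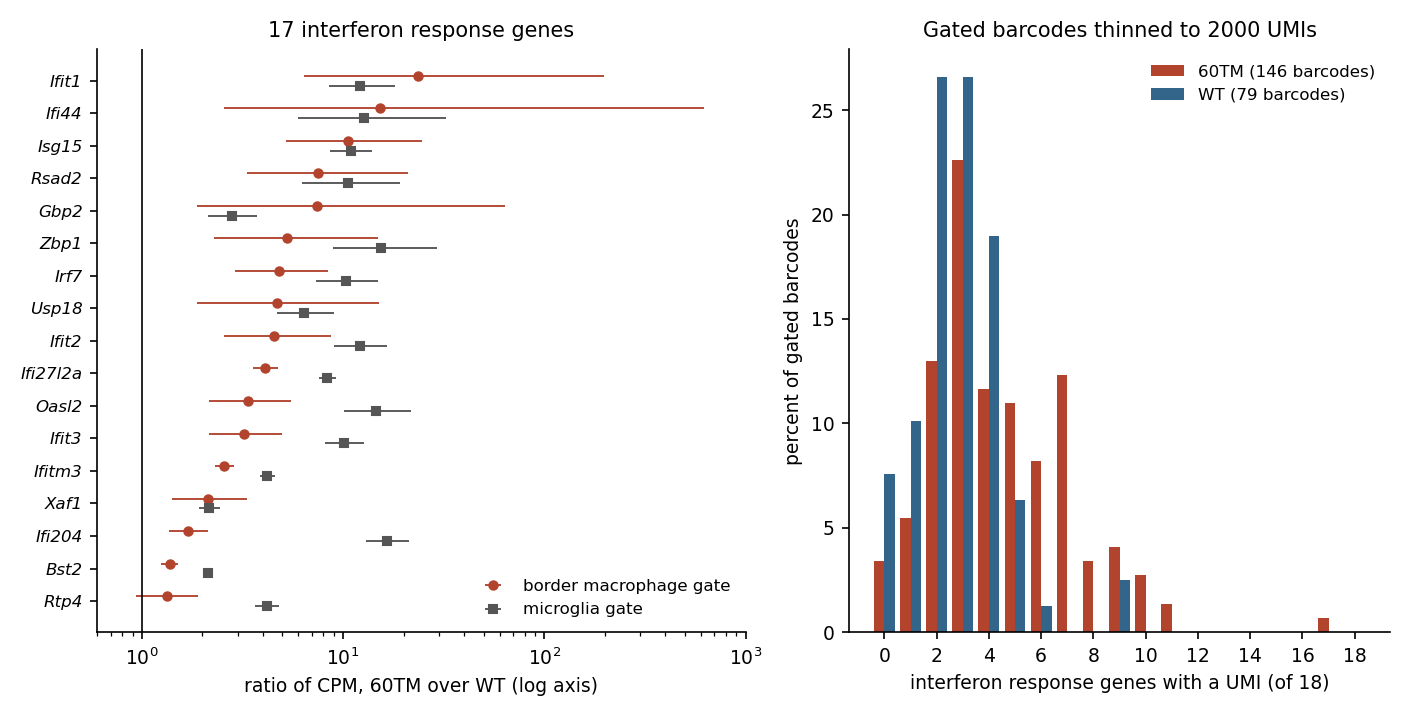
Left, the ratio of CPM in 60TM over WT (log axis) of 17 of the 18 interferon response genes in the macrophage gate and in the microglia gate, with 95% counting intervals; all 17 points of the macrophage gate lie above 1. Right, the percent of gated barcodes by the number of these genes with a UMI after thinning to 2000 UMIs; 60TM reaches 17 genes and WT 9.

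Chemokines differed in both directions. Of 15 listed, 11 had enough UMIs. Among these Ccl12, Ccl9 and Ccl6 passed 2-fold higher in 60TM and 0 lower, against 4.58% and 1.31% of all genes tested. Ccl12, a monocyte attractant, had 1961 CPM in 60TM and 816 CPM in WT, a ratio of 2.40 (2.19 to 2.65). Ccl6 had 257 CPM in 60TM and 60.7 CPM in WT, a ratio of 4.24 (3.04 to 6.06), and in microglia its ratio was 0.686. After thinning to 2000 UMIs, Ccl6 was seen in 32.2% (24.7 to 40.4) of 60TM and 10.1% (4.474 to 18.98) of WT gated barcodes, and Ccl12 in 61.6% and 48.1%. Ccl2 and Ccl7, which also attract monocytes, had ratios below 1 in the gate, 0.652 (0.588 to 0.724) and 0.817 (0.746 to 0.895). In microglia the ratios of Ccl2 and Ccl7 were 5.56 and 9.26, from much lower levels: Ccl2 had 94.2 CPM in 60TM and 16.9 CPM in WT microglia, against 639 CPM in 60TM and 980 CPM in WT macrophages. Ccl4 had a ratio of 1.21 in the gate and 2.56 without mixed barcodes, and mixed barcodes held 47.2% of its WT UMIs. Fos and Jun, which papain dissociation can induce, had ratios of 1.09 and 1.08. Of 20 listed immediate early and dissociation genes 15 were measured, of which 11 had a ratio above 1 and 4 below. None of the 15 reached 2-fold, which is near the shares of 4.58% higher and 1.31% lower over all genes tested. The part of dissociation in these ratios was not tested.

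Surface and secreted genes of macrophages differed in both directions. The 23 other border macrophage genes had a median log2 ratio of -0.32 over all members (-0.17 without mixed barcodes), with 6 higher and 17 lower in 60TM by any amount. Siglec1, a sialic acid receptor that interferon induces, had 69.3 CPM in 60TM and 34.2 CPM in WT, a ratio of 2.02 (1.26 to 3.38). Vcam1, an adhesion molecule, had 563 CPM in 60TM and 199 CPM in WT, a ratio of 2.82 (2.34 to 3.43), and complement C4b a ratio of 2.01 (1.61 to 2.53). The fatty acid scavenger Cd36 had 124 CPM in 60TM and 305 CPM in WT, a ratio of 0.408 (0.330 to 0.504). The iron exporter Slc40a1 had 159.5 CPM in 60TM and 346 CPM in WT, a ratio of 0.462 (0.381 to 0.559). After thinning to 2000 UMIs, Cd36 was seen in 25.3% (18.5 to 33.2) of 60TM and 43.04% (31.9 to 54.7) of WT gated barcodes, and Slc40a1 in 23.3% and 48.1%. Vcam1 was seen in 50.7% of 60TM and 21.5% of WT barcodes. Among 16 scavenger receptors measured, Siglec1 and Axl were at least 2-fold higher and Cd36 lower. Among 11 iron and haem genes Slc40a1 alone passed 2-fold. Over all genes tested, 4.58% were higher and 1.31% lower. Without mixed barcodes 14 scavenger receptors were measured, with Siglec1 higher and Cd36 lower, and Axl had too few UMIs. The shares over all genes were then 2.14% higher and 0.466% lower. All 18 lysosomal genes were lower in 60TM by a small amount, with a median log2 ratio of -0.27. Without mixed barcodes 15 of 18 were lower, with a median of -0.2. Over all 3277 genes tested 1665 had a ratio below 1. The shift was not particular to lysosomal genes. Of 12 listed myeloid genes shared with microglia 10 were lower (median -0.29), and of the 7 gate genes 6 (median -0.28). Their medians were -0.12 and -0.11 without mixed barcodes. Vcam1, outside the lists and the ranking, was chosen after its values were seen.

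Of 7 glucocorticoid-induced genes measured, Mt2, Mt1 and Klf9 were at least 2-fold higher in 60TM and 0 lower. Over all 3277 genes tested, 4.58% were higher and 1.31% lower. Only 4 of these genes were measured without mixed barcodes, where Mt2 alone was at least 2-fold higher and 0 lower. Without mixed barcodes Mt1 had a ratio of 1.67, and mixed barcodes held 58.8% of the 60TM UMIs of Mt2 and 58.4% of those of Klf9. Socs3, the feedback inhibitor of cytokine signalling, had 185 CPM in 60TM and 76.3 CPM in WT, a ratio of 2.42 (1.78 to 3.36). The 11 MHC class I genes had a median log2 ratio of 0.65, with 9 higher and 2 lower by any amount and none of the 7 measured at 2-fold. H2-K1 had 846 CPM in 60TM and 492 CPM in WT, a ratio of 1.72 (1.52 to 1.95).

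Lyve1 (GRCm38 chr7:110850607-110863239, minus strand) split the gate into 2 classes. It is also a gate gene, so its share is a description. At least 1 Lyve1 UMI was seen in 124 of 162 60TM barcodes, 76.5% (69.2 to 82.8), and in 58 of 91 WT barcodes, 63.7% (52.99 to 73.6). In microglia it was seen in 1 of 2861 60TM and 1 of 2337 WT barcodes, at median depths of 7012 and 5783 UMIs. Thinned to 2000 UMIs, the shares in the gate were 68.5% in 60TM and 51.9% in WT. The level of Lyve1 was 981 CPM in 60TM and 579 CPM in WT, a ratio of 1.70 (1.51 to 1.91), and 2.06 (1.82 to 2.33) without mixed barcodes. The other gate genes stood at ratios of 0.677 (Pf4, a platelet-type chemokine) to 0.908 (Cd163), and without mixed barcodes of 0.776 to 1.04.

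Lyve1-positive and Lyve1-negative macrophages were compared with at least 4 of the other 6 gate genes required in both and without mixed barcodes. This left 109 60TM and 51 WT Lyve1-positive barcodes and 23 60TM and 30 WT Lyve1-negative barcodes. Of 2135 genes tested, 2 (0.0937%) were higher and 1 (0.0468%) was lower in Lyve1-positive barcodes (edgeR quasi-likelihood test, library as block, adjusted p under 0.05), a comparison added after the data had been seen. Without adjustment, 129 genes were higher and 70 lower at a p under 0.05, and DESeq2 called 4 higher and 0 lower. From 50 UMIs, 34 genes were called higher and 26 lower of 4102 tested. Fcna, the lectin ficolin A, stood at 267 CPM in 60TM and 271 CPM in WT Lyve1-positive barcodes, and at 16.0 and 21.7 CPM in Lyve1-negative ones, a log2 difference of 3.76 ± 0.40 (SE, adjusted p = 0.033). Klf4, a Krüppel-like transcription factor, stood at 527 CPM in 60TM and 428 CPM in WT Lyve1-positive barcodes, and at 104 and 101 CPM in Lyve1-negative ones, a log2 difference of 2.16 ± 0.23 (adjusted p = 0.033). H2-Eb1 was lower in Lyve1-positive barcodes (adjusted p = 0.049), with 2 UMIs in 60TM and 0 in WT Lyve1-positive barcodes, and 2 and 182 UMIs in Lyve1-negative ones. The 182 WT UMIs came from 3 barcodes with 129, 43 and 10, and the barcode with 129 also held 7 UMIs of Ccr2. With mixed barcodes kept in both classes, 0 genes were called higher and 0 lower.

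The lectin gene Cd209f and the folate receptor Folr2 leaned the same way in both libraries without passing. Cd209f had 454 CPM in 60TM and 440 CPM in WT Lyve1-positive barcodes against 55.9 and 123 CPM in Lyve1-negative ones (edgeR adjusted p = 0.0871), and Folr2 514 and 534 CPM against 55.9 and 166 CPM (adjusted p = 0.114). Of 12 interferon response genes tested, 0 passed in either direction, where 0.0937% of all 2135 genes passed higher and 0.0468% lower. With so few passing, the 0 of 12 does not show a lack of difference. The median log2 difference of the 12 was 0.46. Ifi27l2a stood at 1942 CPM in 60TM and 377 CPM in WT Lyve1-positive barcodes, and at 1428 and 456 CPM in Lyve1-negative ones. The 60TM level of Ifi27l2a was above the WT level in both classes. Lyve1-negative barcodes were shallower, with a median of 5508 UMIs in 60TM and 3708 in WT, against 6628 and 5727 in Lyve1-positive ones, and held fewer UMIs of the other 6 gate genes, 32 and 29.5 against 84 and 89. After thinning to 2000 UMIs, 32 genes were called higher and 6 lower of 414 tested.

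MHC class II-positive macrophages were rare. At least 2 of H2-Aa, H2-Ab1 and H2-Eb1 were seen in 2 of 162 60TM barcodes, 1.23% (0.150 to 4.39), and in 4 of 91 WT barcodes, 4.40% (1.21 to 10.9), at median depths of 7249 and 5513 UMIs. In microglia the shares were 0.245% in 60TM and 0.171% in WT. Outside both gates 14 of 5102 60TM barcodes (0.274%) and 5 of 4007 WT barcodes (0.125%) were positive, 12 and 4 barcodes there having 10 or more class II UMIs. In 60TM 1 of the positive barcodes was Lyve1-positive and 1 Lyve1-negative, with 12 and 10 class II UMIs. In WT 3 were Lyve1-negative, with 352, 137 and 25 class II UMIs, and 1 was Lyve1-positive and mixed, with 3. The 60TM barcode with 12 class II UMIs also had 11 of Lyve1.

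The low class II ratios rest on these few barcodes. H2-Eb1 (GRCm38 chr17:34305867-34316674, plus strand) had 3.73 CPM in 60TM and 283 CPM in WT, from 5 and 182 UMIs, a ratio of 0.0131 (0.00422 to 0.0313). The 3 highest WT barcodes held 99.0% of the class II UMIs and 93.8% of the Cd74 UMIs of the WT gate. The barcode with 352 class II UMIs also held 7 UMIs of Ccr2, a receptor of monocytes and their offspring, and no other gated WT barcode had a monocyte marker UMI. Outside class II-positive barcodes H2-Aa, H2-Ab1 and H2-Eb1 had 7 UMIs in 60TM and 2 in WT together. There Cd74, the invariant chain of class II, had 126 CPM in 60TM and 33.9 CPM in WT, a ratio of 3.70 (2.35 to 6.14), against 0.260 (0.219 to 0.307) over the whole gate. With 1 Lyve1-negative class II-positive barcode in 60TM, a test between these and Lyve1-positive macrophages was not run.

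**Figure D5:**
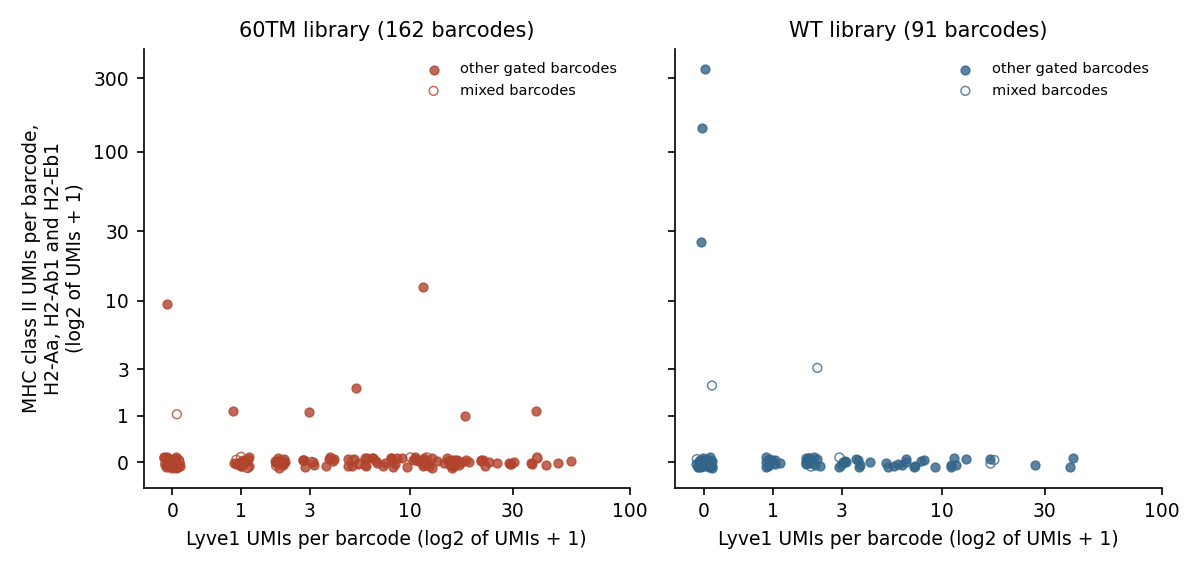
Each point is a gated barcode, by its Lyve1 UMIs (horizontal) and its summed UMIs of H2-Aa, H2-Ab1 and H2-Eb1 (vertical), both on a log2 scale of UMIs + 1 with small jitter, in 60TM (left) and WT (right); open points are mixed barcodes. The 3 WT barcodes with 25, 137 and 352 class II UMIs have no Lyve1, and no 60TM barcode exceeds 12.

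Markers of other blood-borne cells gave few UMIs in the gate, though not all were below their level in the whole library. Summed over 5 monocyte markers there were 12 UMIs in 60TM and 7 in WT, with Ly6c2, Plac8 and Chil3 at 0 in both libraries, or 8.94 and 10.9 CPM against 55.9 and 45.9 CPM over the whole library. Of 4 neutrophil markers there was 1 UMI in 60TM and 0 in WT. Of 4 T or NK cell markers there were 11 UMIs in 60TM, 9 of them in 1 barcode, and 0 in WT. Dendritic cell markers gave 29 UMIs in 60TM and 32 in WT, with Xcr1 and Ccr7 at 0 in both. These were spread over 20 60TM and 18 WT barcodes and came to 21.6 CPM in 60TM and 49.8 CPM in WT, against 9.02 and 6.90 CPM over the whole library. Zbtb46, a transcription factor gene among them, was higher in the gate than in microglia (edgeR adjusted p = 0.0066). B cell markers gave 30 UMIs in 23 60TM barcodes and 16 UMIs in 13 WT barcodes, or 22.4 and 24.9 CPM against 11.2 and 10.4 CPM over the whole library, with Ms4a1 at 0 in both. In the WT gate Cd79a was also at 0. In microglia the B cell markers stood higher, at 34.4 CPM in 60TM and 35.9 CPM in WT.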

How the data were processed

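Hippocampal cells of 3 pooled 60TM mice and 3 pooled WT mice were profiled by droplet-based 3′ single-cell RNA sequencing, with 1 library per genotype. The deposited values are raw UMI counts per gene and barcode, made by the authors with Cell Ranger 5.0.0, per the file headers, on GRCm38, per the submitters' processing notes. The other deposited files hold gene and barcode names. Annotation release and handling of intronic reads are not given in the sources used here. The libraries held 80684152 UMIs in 8733 60TM barcodes and 63532407 UMIs in 6861 WT barcodes.

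Barcodes needed 500 genes or more and no more than 15% of UMIs from mitochondrial genes. UMIs were summed over the gate and divided by all UMIs of the gate (CPM). A gene was called 2-fold higher or lower from at least 100 UMIs over both libraries. Ratios have exact conditional binomial intervals and shares have Clopper-Pearson intervals, both at 95%. List medians use log2 of CPM + 5. Genes named were the 12 per direction with the interval bound nearest to 1 farthest from it and, for edgeR, the 10 per direction with the largest smaller ratio of both libraries, leaving out gate, mitochondrial, ribosomal protein, haemoglobin, Xist, Tsix and Y-linked genes, plus members of 34 gene lists. Members and lists were chosen with earlier results of these data known. Gate and microglia, and Lyve1-positive and Lyve1-negative barcodes, were compared with edgeR's quasi-likelihood test on 4 sums with library as block (TMM factors, Benjamini-Hochberg adjustment). A few genes are not reported here by name but stay in all counts and sums. The scripts were tested on simulated data. Doublets were kept, and Scrublet in scanpy, set to 0.8% per 1000 barcodes, marked 568 60TM and 353 WT barcodes, of which 33 and 8 were gated. DESeq2, other filters, thinning to 2000 UMIs and scalings were alternatives. Genes were placed with GENCODE M21 (32158 of 32285 matched by identifier). Software was Python 3.11.15, numpy 2.4.6, scipy 1.17.1, pandas 2.3.3, scanpy 1.11.5, matplotlib 3.10.9, R 4.3.3, edgeR 4.0.16 and DESeq2 1.42.0.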

Additional observations from a re-analysis of the deposited data

Results flagged for a closer look

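Of the genes named by rank in the comparison of genotypes, Apod and Ttr passed 2-fold in opposite directions in macrophages and microglia. With 1 library per genotype the difference between the ratios was not tested. Apod, an apolipoprotein gene, had a ratio of 60TM over WT of 7.48 in the macrophage gate and 0.485 in microglia, with 88.8% of its 60TM UMIs in mixed barcodes and a ratio of 2.31 (1.74 to 3.09) without them. Ttr had a ratio of 0.0488 in the macrophage gate and 38.9 in microglia, with 99.6% of its WT UMIs in mixed barcodes and a ratio of 12.04 without them. Ttr is among the markers that define mixed barcodes. Other ranked genes had intervals on opposite sides of 1 without passing 2-fold in both. Ccl6 had a ratio of 4.24 in the gate and 0.686 in microglia, Cd74 of 0.260 and 1.29, Ndnf of 0.428 and 1.75, Egfl7 of 0.742 and 1.61, and Snhg11 of 0.632 and 1.23.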

How the results depend on the processing

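No paired analysis was possible because each genotype has 1 library. Without mixed barcodes the 60TM gate share was 1.67%, the 60TM Lyve1 share 83.1% and the counts 2-fold higher and lower 46 and 10, and Ttr (12.04) and Mag (1.63) turned to higher in 60TM. Ttr and Mag are among the markers that define mixed barcodes. Lyve1 was seen in 68.5% of 60TM and 51.9% of WT barcodes after thinning, and 2 UMIs of it in 64.2% and 51.6%. Any of 3 class II genes was seen in 4.94% of 60TM barcodes. The counts higher and lower in 60TM were 53 and 28 without Scrublet doublets, 10 and 6 after thinning (522 genes tested), 338 and 101 from 50 UMIs, and 793 and 283 from 20 UMIs. As means over barcodes 154 were higher and 27 lower. The share of calls that were higher was 77.7%, against 65.4% without Scrublet doublets, 62.5% after thinning and 68.3% with 5 gate genes required. Against microglia, DESeq2 called 768 higher and 585 lower, and 1680 were lower with no filter. Lyve1-positive against Lyve1-negative gave 4 and 0 by DESeq2, 34 and 26 from 50 UMIs, 32 and 6 after thinning and 0 and 0 with mixed barcodes. The cause of these shifts was not tested. Over all settings, 75 counts and shares kept direction and size and 29 moved. Of 182 list medians 164 did so and 18 moved. For named-gene values 331 kept direction and size, 94 moved and 2 were reversed. The planned edgeR comparison of class II-positive Lyve1-negative with Lyve1-positive macrophages and its alternatives were not run, with 1 such barcode in 60TM and 3 in WT. Depth limits rare genes: a count of 0 allows up to 3 UMIs.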

Other observations

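Insulin-like growth factor Igf1 had 227 CPM in 60TM and 405 CPM in WT gated macrophages, a ratio of 0.562 (0.474 to 0.665), and a ratio of 0.359 in microglia. Apoe, the lipid carrier, had a 60TM over WT ratio of 0.966 (0.951 to 0.981) in the gate and was higher in the gate than in microglia (edgeR adjusted p = 2.66e-06), at 35180 CPM in 60TM and 36440 CPM in WT gated macrophages and 1850 and 1787 CPM in microglia. Spp1, the secreted osteopontin, had a ratio of 10.7 in the gate, and 1 barcode held 82.1% of its 60TM UMIs. Slc7a11, the cystine transporter, had a ratio of 5.80 (3.54 to 10.2) over all gated barcodes and 0.854 without mixed ones. Dab2 and the clearance receptor Stab1, both border macrophage genes, had ratios of 0.643 (0.597 to 0.694) and 0.627 (0.581 to 0.677). Free RNA was estimated at 3.88% of the 60TM and 1.72% of the WT gate's UMIs.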
